A study of Mus musculus with 21 samples.

Results

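The genes described here are 10 genes of de novo lipogenesis, the making of fatty acids from carbohydrate carbon: *Srebf1*, *Mlxipl*, *Acly*, *Me1*, *Acaca*, *Acacb*, *Fasn*, *Scd1*, *Thrsp* and *Pnpla3*. They were chosen by their known role and taken by gene name from the array, where these 10 of 27373 gene names held 18 of 41174 probes. RNA came from male C57Bl6/J mice aged 45 weeks, labelled either wild type (WT) or JNK1 knock-out (KO), and both genotypes had been given a high fat diet from week 5 to week 44. JNK1 is a stress-activated kinase encoded by *Mapk8*. The labels do not say which part of the gene the knockout removes or whether arrays of different tissues share a mouse, so p-values measure the spread between these samples only. Each sample was hybridised to 1 single-colour Agilent array, and the arrays used were 3 KO and 3 WT from liver, 4 KO and 3 WT from epididymal fat, and 4 KO and 3 WT from skin.

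Lipogenesis begins when ATP citrate lyase (*Acly*) cleaves citrate to cytosolic acetyl-CoA. The acetyl-CoA carboxylases (*Acaca*, *Acacb*) turn it into malonyl-CoA, fatty acid synthase (*Fasn*) builds palmitate with NADPH that malic enzyme (*Me1*) helps to supply, and stearoyl-CoA desaturase (*Scd1*) makes monounsaturated fatty acids. In liver the pathway is driven after feeding by 2 transcription factors, the insulin-responsive SREBP-1c (*Srebf1*) and the glucose-responsive ChREBP (*Mlxipl*), and *Thrsp* (Spot 14) and the lipid droplet protein gene *Pnpla3* are further targets of this control.

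A level here is the log2 of a probe's intensity less the 75th percentile of its array, which is thus 0. Genotype differences subtract WT from KO on that log2 scale. A level belongs to its own probe, and levels of different genes are not set against each other. Over the 20 arrays, 38.9% to 57.2% of probes were well above background, and skin KO 1 and skin WT 1 were the dimmest. The tissue labels fitted their markers: the mean of 7 hepatocyte markers was 7.41 to 8.05 on liver arrays and at most 3.40 elsewhere, that of 8 epidermal markers 7.04 to 7.73 on skin arrays, and that of 8 adipocyte markers 5.67 to 6.35 on fat arrays and 4.40 to 5.40 on skin arrays. The exception was the scanner file of fat WT 2, which across probes had r of 0.863 to 0.914 with the skin arrays and of 0.725 to 0.766 with those of fat. It was left out, and fat is also given from the authors' deposited table, whose column for this array correlated with the other fat columns (r from 0.953 to 0.98) and which holds 4 KO and 4 WT. *Mapk8* lay at -2.98, -3.20, -3.35 and -3.66 on the fat KO arrays and at -0.79, -0.96 and -1.0 on the fat WT arrays (difference -2.38, SE 0.184, adjusted p = 0.0167 in limma). In liver it lay at -3.22, -4.68 and -4.48 in KO, where only KO 1 was well above background, and at -1.98, -1.68 and -1.61 in WT (difference -2.37, SE 0.379, adjusted p = 0.216). In skin it was well above background on WT 2 and WT 3 only and was not tested.

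The sequences just upstream of the start are shown for the genes whose KO and WT arrays did not overlap in liver (*Thrsp*, *Acacb*) or fat (*Mlxipl*) and for *Fasn*, the enzyme that gives the pathway its product. They are the 250 bases before each RefSeq start on GRCm38.p6, read 5′ to 3′ on the gene's strand, and 9 of the 10 genes matched an entry. Capitals mark the letters TCACNCCAC (a sterol regulatory element), CACGTG (an E-box), CCAAT and GGGCGG (a GC box), searched on both strands.
Thrsp, chr7:97417551-97417800, minus strand: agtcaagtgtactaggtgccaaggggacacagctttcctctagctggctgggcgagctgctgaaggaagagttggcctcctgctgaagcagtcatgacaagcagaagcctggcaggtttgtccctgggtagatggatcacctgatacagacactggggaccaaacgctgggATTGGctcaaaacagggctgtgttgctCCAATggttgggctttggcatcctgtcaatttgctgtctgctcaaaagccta
Acacb, chr5:114165268-114165517, plus strand: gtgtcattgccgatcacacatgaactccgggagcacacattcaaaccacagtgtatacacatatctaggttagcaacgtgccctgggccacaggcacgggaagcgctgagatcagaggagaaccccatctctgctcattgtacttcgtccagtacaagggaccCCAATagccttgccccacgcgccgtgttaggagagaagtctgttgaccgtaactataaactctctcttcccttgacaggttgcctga
Mlxipl first start, chr5:135089640-135089889, plus strand: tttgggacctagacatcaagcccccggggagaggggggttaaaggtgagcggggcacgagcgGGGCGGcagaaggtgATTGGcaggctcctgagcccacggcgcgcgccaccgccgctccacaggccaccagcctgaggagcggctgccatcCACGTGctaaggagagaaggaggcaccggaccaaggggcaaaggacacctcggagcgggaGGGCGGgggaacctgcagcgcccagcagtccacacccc
Mlxipl second start, chr5:135106641-135106890, plus strand: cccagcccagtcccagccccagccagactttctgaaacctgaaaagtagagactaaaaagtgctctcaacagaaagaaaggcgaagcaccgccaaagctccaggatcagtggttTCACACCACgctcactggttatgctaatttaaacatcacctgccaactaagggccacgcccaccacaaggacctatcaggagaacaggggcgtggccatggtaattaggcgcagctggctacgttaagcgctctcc
Fasn, chr11:120824548-120824797, minus strand: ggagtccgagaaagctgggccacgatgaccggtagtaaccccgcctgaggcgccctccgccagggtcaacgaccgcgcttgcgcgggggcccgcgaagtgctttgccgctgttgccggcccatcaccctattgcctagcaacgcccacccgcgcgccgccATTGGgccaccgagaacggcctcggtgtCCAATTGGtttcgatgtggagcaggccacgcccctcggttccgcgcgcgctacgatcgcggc
The first *Mlxipl* window holds CACGTG from base 98 to base 93 before the start, together with 1 CCAAT and 2 GGGCGG matches, and the second holds a sterol regulatory element match, TCACACCAC, from base 136 to base 128. *Thrsp* holds 2 CCAAT matches, *Acacb* holds 1 and *Fasn* holds 3, of which 2 overlap on opposite strands. Over all 32851 promoter windows of this length, 1.05% hold TCACNCCAC, 6.02% CACGTG, 33.8% CCAAT and 32.7% GGGCGG. Among the 13 windows of the 9 genes with an entry the counts were 1, 1, 8 and 6. These matches describe the letters only.

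In wild-type mice the transcripts of both transcription factors and of *Thrsp* were 4.2- to 5.08-fold higher in liver than in fat. Under quantile normalization the differences of *Srebf1* and *Thrsp* were 1.33 and 1.12 in place of 2.32 and 2.07, and all 3 genes were still called. Of the 10 genes, 6 were higher in liver, 1 was lower and 3 did not pass the test, where 61.5% of the 15967 genes tested passed (30.1% higher, 31.4% lower). The median difference was 0.93 over the 10 genes and -0.04 over all genes tested.

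The *Srebf1* level was 7.90, 8.20 and 7.49 in WT liver, 5.41, 5.55 and 5.67 in WT fat and 6.51, 5.64 and 5.84 in WT skin. All liver arrays lay above all arrays of the other tissues, and fat and skin arrays overlapped. The liver level was 4.99-fold that of fat (difference 2.32, SE 0.279, adjusted p = 1.39e-06) and 3.64-fold that of skin (1.86, SE 0.277, adjusted p = 1.47e-05). The probe lies at chr11:60013214-60013273 on the minus strand of mm9. *Mlxipl* had the same order between liver and the rest, at 4.23, 4.46 and 4.02 in liver, 2.13, 1.71 and 1.83 in fat and 2.19, 1.23 and 1.45 in skin. Its liver level was 5.08-fold that of fat (2.34, SE 0.374, adjusted p = 3.52e-05) and 6.12-fold that of skin (2.61, SE 0.373, adjusted p = 9.25e-06). Fat and skin differed by 0.27 (95% interval -0.52 to 1.06), and their arrays overlapped. The *Mlxipl* probe used lies at chr5:135613505-135613564 on the plus strand of mm9.

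*Thrsp*, which encodes a nuclear protein that promotes lipogenesis, was ordered liver, fat, skin with no overlap between any pair of tissues. Its level was 6.35, 6.90 and 6.65 in WT liver, 4.88, 4.24 and 4.56 in WT fat and 3.79, 3.72 and 3.25 in WT skin. Liver exceeded fat by 2.07 (4.2-fold, SE 0.371, adjusted p = 0.00014) and skin by 3.05 (8.25-fold, SE 0.37, adjusted p = 2.02e-06), and fat exceeded skin by 0.97 (adjusted p = 0.0342). The last of these calls was lost when skin WT 3, fat WT 1 or fat WT 4 was left out, with values of 0.81, 0.81 and 0.98, and with slide as a fixed block (1.10). The *Thrsp* probe lies at chr7:104565562-104565621 on the minus strand of mm9.

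Of the enzymes, *Acly*, *Acaca* and *Scd1* were higher in liver than in fat. *Acly* was at 1.93, 1.78 and 2.15 in liver and 0.93, 0.90 and 1.02 in fat, a difference of 1.0 (SE 0.237, adjusted p = 0.00148), which was 0.24 and not called when all probes of a gene were averaged. The second *Acly* probe, which enters that average, was well above background on no array. *Acaca*, the cytosolic carboxylase, was at 1.37, 1.26 and 0.75 in liver and -0.21, 0.30 and 0.28 in fat, also a difference of 1.0 (SE 0.35, adjusted p = 0.0201). *Scd1* was at 8.05, 7.73 and 8.10 in liver and 7.29, 6.91 and 7.09 in fat, a difference of 0.86 (SE 0.306, adjusted p = 0.0211). For all 3 the liver arrays lay above the fat arrays. The *Acaca* call was lost without liver WT 1 (0.88), liver WT 2 (0.93) or fat WT 1 (0.83) and with slide as a fixed block (0.69), and the *Scd1* call without liver WT 1 (0.82), liver WT 3 (0.79) or fat WT 3 (0.77). Under quantile normalization the *Scd1* difference turned to -0.24.

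*Fasn*, *Acacb* and *Me1* did not pass the test between WT liver and WT fat. *Fasn* was at 8.63, 8.84 and 8.27 in liver and 7.50, 7.74 and 8.09 in fat, a difference of 0.81 with a 95% interval of -0.04 to 1.66 (adjusted p = 0.0923). Its direction turned under quantile normalization, to -0.24. *Acacb*, the carboxylase at the mitochondrial surface, differed by 0.78 (-0.37 to 1.93) and *Me1* by -0.64 (-1.50 to 0.22). *Me1* was called lower in liver under quantile normalization (-1.26, adjusted p = 0.0134), the only setting that did so. Over the other settings its difference shrank to as little as -0.09. The second *Me1* probe, well above background on every array, went the other way, with a higher mean in WT liver than in WT fat.

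*Pnpla3* was lower in liver than in fat. In WT fat it was at -0.36, -0.43 and -0.37, whereas in WT liver its probe was not well above background on any of 3 arrays. Liver minus fat was -4.11 (adjusted p = 1.11e-05). With liver values raised to the lowest signal well above background on each array, fat was 8.39-fold higher (3.07 in log2). That fold was not tested. After normexp background correction the difference was -1.40, smaller in size than this bound. WT skin had 2 of 3 arrays well above background, and liver minus skin was -1.68 (adjusted p = 0.0192). This call was not made in 4 of the 6 fits with 1 array left out or after normexp. With the liver values raised in the same way, skin was 1.56-fold higher (0.64 in log2, not tested), and the normexp difference was -0.51. Fat exceeded skin by 2.43 (SE 0.591, adjusted p = 0.00227), by 1.74 without skin WT 1, the skin array not well above background, and by 0.89 after normexp, with the call made in both. *Pnpla3* encodes a lipid droplet hydrolase, and its probe lies at chr15:84019823-84019882 on the plus strand of mm9.

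Against WT skin, 5 of the 10 genes were higher in liver, 2 were lower and 3 did not pass, where 64.3% of 14822 genes passed (34.7% higher, 29.7% lower). The higher genes besides the 3 above were *Acaca*, by 1.81 (SE 0.349), and *Scd1*, by 1.38 (SE 0.305). *Fasn* (0.85, adjusted p = 0.0752), *Acly* (0.40) and *Me1* (-0.19) did not pass, though *Fasn* was called after normexp (1.06), with slide as a fixed block (1.13) and without skin WT 1 (1.19). *Acacb* ran the other way, at 3.33, 2.21 and 2.55 in WT skin, 1.04, 1.06 and 1.33 in WT liver and 0.61, -0.06 and 0.53 in WT fat. Its skin level was 2.93-fold that of liver (adjusted p = 0.0194, and no longer called without skin WT 1, at -1.24, or with slide as a fixed block, at -1.53) and 5.05-fold that of fat (adjusted p = 0.00167). The skin arrays also carried 8 skeletal muscle markers, at a mean of 7.85 to 8.01 in WT skin against -4.70 to -0.46 in WT liver and -1.69 to -1.42 in WT fat, and their part in the *Acacb* level was not tested. Between WT fat and WT skin, 4 of the 10 genes passed, where 57.5% of 16089 genes did (30.9% higher, 26.6% lower), and *Acly* (-0.60, adjusted p = 0.0398) was the remaining one besides *Pnpla3*, *Thrsp* and *Acacb*. That *Acly* call was lost in 5 of 6 fits with 1 array left out, the exception being the one without skin WT 3, and under normexp, quantile normalization, the mean of all probes and slide as a fixed block. Between fat and skin, *Fasn* was also called under quantile normalization (1.03), *Scd1* under quantile normalization (1.34) and normexp (0.86), and *Acaca*, at 0.81 otherwise, with slide as a fixed block (1.11), without skin WT 1 (1.06) and without fat WT 1 (0.98).

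**Figure D1:**
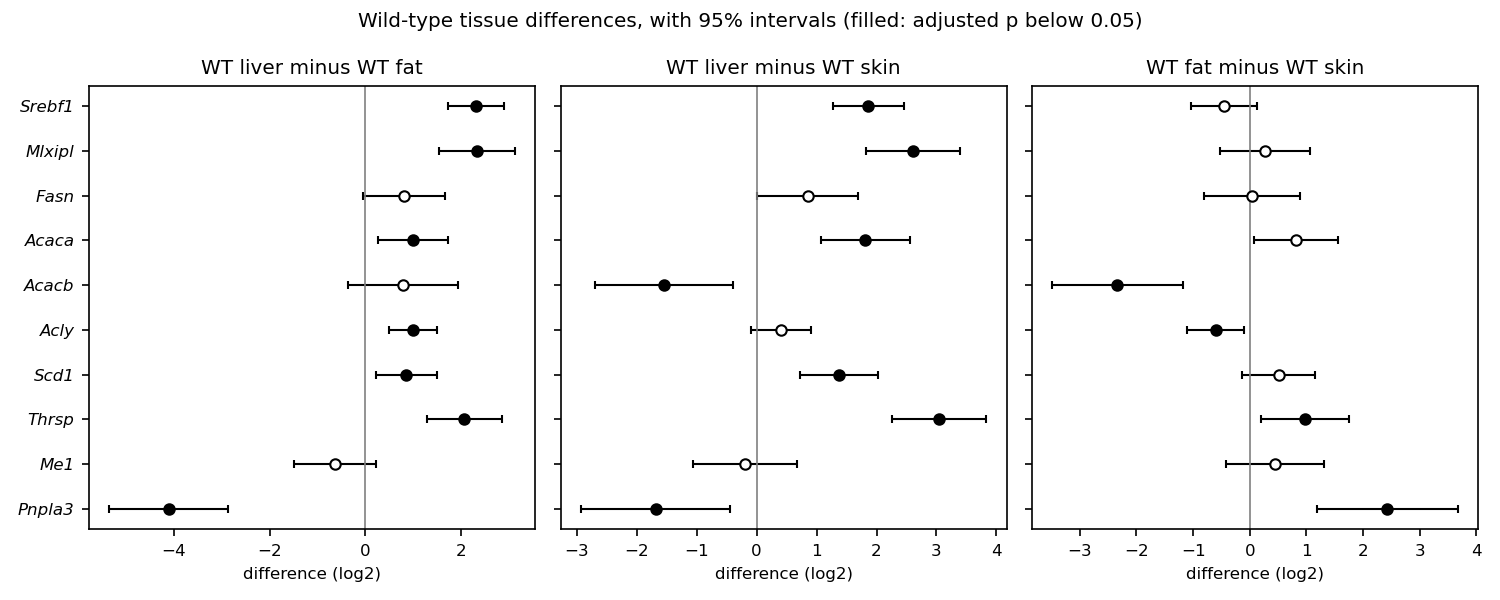
Differences between wild-type tissues for the 10 genes, on the log2 scale, with 3 arrays in each tissue. Points are fitted differences, bars are 95% intervals, and filled points have an adjusted p below 0.05. *Srebf1*, *Mlxipl* and *Thrsp* lie from 1.86 to 3.05 above 0 in both liver comparisons, and the liver values of *Pnpla3* were not well above background.

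The knockout comparison in liver gave no called lipogenesis gene. Of the 9 genes tested, 8 had lower values in KO and 1, *Mlxipl*, had a higher one, with a median difference of -0.17, where 49% of the 13302 genes tested had a higher value and the median was 0. By limma 0.0226% of all genes were called, 3 genes, and 0 to 28 genes when 1 array was left out. At an unadjusted p below 0.05 the count was 1 of 9, *Thrsp*, where 3.64% of all genes were lower and 2.4% higher at that level. The 9 genes tested were well above background on every array, and *Pnpla3*, which was so on 1 of 6 liver arrays, was not tested.

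*Thrsp* gave the smallest p of the 9 genes tested in liver. Its level was 5.49, 6.19 and 5.45 in KO liver and 6.35, 6.90 and 6.65 in WT liver. Every KO array lay below every WT array, which held for 6.22% of all genes, while 4.8% had every KO array above (11% in all). The difference was -0.92 (1.90-fold, SE 0.253, 95% interval -1.52 to -0.32, adjusted p = 0.572), and over the other settings it ran from -1.17 to -0.79, with adjusted p from 0.308 to 1. *Acacb* was the other gene with no overlap, at 0.77, 0.92 and -1.05 in KO and 1.04, 1.06 and 1.33 in WT. The lowest of these 6 values is liver KO 3, and the difference of -0.93 (SE 0.503, adjusted p = 0.925) was -0.30 without it. The *Acacb* probe lies at chr5:114700635-114700695 on the plus strand of mm9, and a second *Acacb* probe was well above background on only 1 of 6 liver arrays.

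The remaining enzymes had small differences in liver beside their errors. *Scd1* was at 7.70, 7.86 and 6.37 in KO and 8.05, 7.73 and 8.10 in WT, a difference of -0.65 (SE 0.39), and again KO 3 was the low array. *Fasn* was at 8.49, 8.91 and 7.91 in KO and 8.63, 8.84 and 8.27 in WT, and the groups overlapped (difference -0.15, 95% interval -0.82 to 0.53). *Acaca* differed by -0.11 (-0.77 to 0.54), *Acly* by -0.06 (-0.63 to 0.52) and *Me1* by -0.38 (-1.18 to 0.42). Of the transcription factors, *Srebf1* differed by -0.17 (-0.78 to 0.43) and *Mlxipl* by 0.13 (-0.28 to 0.53), and the second *Mlxipl* probe by 0.27. In liver the second probes of *Fasn* and *Me1* differed by -0.42 and -0.53, the other 3 of *Acaca* by 0.01, 0.32 and -0.07, and the second of *Acly* was well above background on no array.

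Liver KO 3 was the lowest of the 6 liver arrays for 7 of the 10 genes. Without it, 5 of the 9 genes had a higher value in KO and 4 a lower one, with a median of 0.02, and *Acaca*, *Acly*, *Fasn* and *Me1* turned to 0.15, 0.16, 0.12 and 0.02. The liver arrays also differed in skeletal muscle markers, whose mean was 0.01, -1.76 and -4.65 in KO 1, KO 2 and KO 3 and -2.23, -4.70 and -0.46 in WT 1, WT 2 and WT 3. With KO 1, KO 2 and WT 3 left out and all tissues in one fit, 1 KO array stood against 2 WT arrays and was assumed to vary like the other groups. The differences were then -1.17 for *Thrsp*, -2.10 for *Acacb* and -1.52 for *Scd1*, with adjusted p of 1, 0.695 and 0.0833. The mean of 8 macrophage markers was 1.75 to 2.98 in KO liver and 3.1 to 3.59 in WT liver. One of them, *Gpnmb*, differed by -5.46, and without it the means overlapped, at 2.83 to 3.92 in KO and 3.41 to 3.77 in WT. The part of these markers in the lipogenesis values was not tested. In tissue RNA, fewer cells of a type and less RNA per cell cannot be told apart. Each liver slide held a single genotype, so no value within a slide could be had, and with slide as a fixed block over all 20 arrays *Mlxipl* turned to -0.48.

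**Figure D2:**
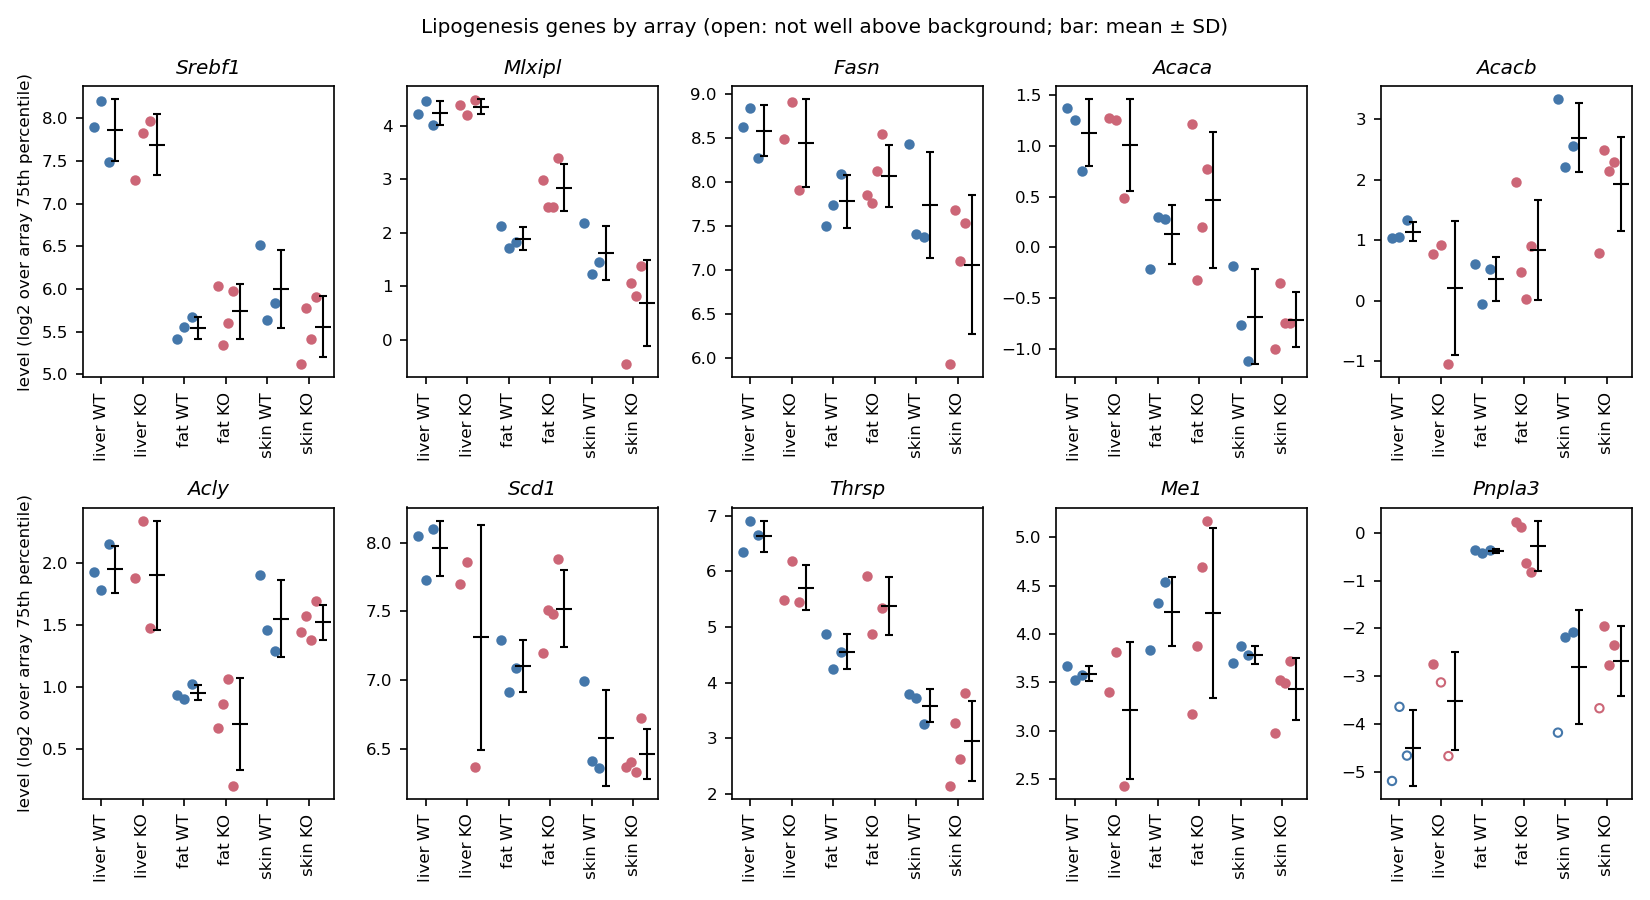
Level of each of the 10 genes on the 20 arrays, in log2 over the 75th percentile of the array, each panel with its own axis. Points are arrays (blue WT, red KO), open points are not well above background, and black bars are the mean and SD of the group. In liver the *Thrsp* and *Acacb* arrays of KO lie below those of WT, and in fat the *Mlxipl* arrays of KO lie above those of WT.

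In fat no lipogenesis gene was called either, and most had higher values in KO. Of the 10 genes, 8 had higher values and 2 lower, with a median of 0.32, where 62.3% of the 15247 genes tested had a higher value and the median was 0.08. Fat KO 1 was the highest fat array for 5 of the 10 genes and fat KO 4 for 4. With KO 1 or KO 4 left out, 8 were still higher and 2 lower, with medians of 0.22 and 0.26. On fat KO 4, 241 probes had every spot marked as an outlier, against at most 24 on the other arrays. None of the 10 was called by limma, where 0.0131% of all genes were. At an unadjusted p below 0.05 the count was 2 of 10, *Mlxipl* and *Thrsp*, where 4.81% of all genes were higher and 3.12% lower at that level. In the deposited table, with 4 KO and 4 WT columns, again 8 were higher and 2 lower with a median of 0.38, where 53.8% of all genes were higher and their median was 0.02. None was called there, where 0.00656% of all genes were. *Mlxipl* was the 1 gene with an unadjusted p below 0.05, where 6.49% of all genes were higher and 5.2% lower at that level.

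*Mlxipl* had the clearest separation of the 10 genes in fat. Its level was 2.99, 2.48, 2.49 and 3.40 in KO and 2.13, 1.71 and 1.83 in WT, so every KO array lay above every WT array, as for 6.63% of all genes, while 2.9% had every KO array below (9.53% in all). The difference was 0.95 (1.93-fold, SE 0.257, 95% interval 0.35 to 1.55, adjusted p = 0.494). In the authors' deposited table the log2 values were 11.56, 10.95, 10.93 and 11.34 in KO and 10.76, 10.12, 10.21 and 10.30 in WT. Again every KO value lay above every WT value, as for 4.35% of all genes there, while 2.76% had every KO value below (7.11% in all), and the difference was 0.85 (SE 0.198, adjusted p = 0.264). The second *Mlxipl* probe, which lies at chr5:135613755-135613814, was well above background on all 7 fat arrays and differed by 0.73. Over all settings the difference ran from 0.59 to 1.41, and the adjusted p from 0.264 to 1.

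*Thrsp* was at 5.91, 4.87 and 5.35 on KO 1, KO 2 and KO 4 of fat and at 4.88, 4.24 and 4.56 in WT. The spot of fat KO 3 was marked as an outlier by the scanner software and left out, so this value rests on 3 against 3 arrays. KO was higher by 0.82 (SE 0.306, 95% interval 0.08 to 1.55, adjusted p = 0.594), and KO 2 lay just under the highest WT array. With the marked spot kept, fat KO 3 was at 3.91, below every WT array, and the difference was 0.44. In the deposited table it was also 0.44 (SE 0.385), with KO at 14.71, 13.74, 12.78 and 13.87 and WT at 13.88, 12.99, 13.05 and 13.41. Fat KO 3 was again the lowest, and the groups overlapped.

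The other genes of the pathway overlapped between the genotypes in fat. *Scd1* was at 7.20, 7.51, 7.48 and 7.88 in KO and 7.29, 6.91 and 7.09 in WT, a difference of 0.42 (95% interval -0.03 to 0.87, adjusted p = 0.655) and of 0.53 in the deposited table. *Fasn* was at 7.85, 7.76, 8.12 and 8.54 in KO and 7.50, 7.74 and 8.09 in WT, a difference of 0.29 (-0.26 to 0.84) and of 0.45 in the table. *Acaca* spread more in KO, from -0.32 to 1.22, than in WT, from -0.21 to 0.30, and differed by 0.34 (-0.51 to 1.19). *Acacb* differed by 0.48 (-0.56 to 1.51), with fat KO 1 the highest at 1.96, and by 0.10 without that array. *Srebf1* differed by 0.20 (-0.27 to 0.66) and *Pnpla3* by 0.10 (-0.55 to 0.76). The 2 genes with lower values were *Acly*, at 0.67, 0.86, 1.06 and 0.20 in KO and 0.93, 0.90 and 1.02 in WT (-0.25, -0.75 to 0.24), and *Me1*, at -0.01 (-1.09 to 1.08).

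Slides and cell type markers are given beside these values. Slide 3 held fat KO 2 and fat WT 4, the 1 within-slide pair of the series, and there KO was higher for *Mlxipl* by 0.65, *Pnpla3* by 0.48, *Scd1* by 0.41 and *Thrsp* by 0.31. The same pair gave values below 0 for the other 6 genes, among them *Fasn* at -0.33, *Srebf1* at -0.31 and *Acaca* at -0.60. With slide as a fixed block over all 20 arrays, 5 of the 10 genes were higher and 5 lower, *Fasn*, *Acaca* and *Srebf1* turned to -0.32, -0.32 and -0.24, and *Mlxipl* and *Thrsp* were at 0.59 and 0.63. The mean of the macrophage markers with a value was 3.78 to 4.65 on KO arrays and 4.98 to 5.60 on WT arrays of fat. Some KO arrays lacked a value for part of the 8 markers, so these ranges do not cover the same genes. Of the 8 markers, 7 were lower in KO and none was called. The lowest difference was that of *Gpnmb*, -4.08. Over the 4 other markers with a value on every fat array, the means were 3.93 to 4.52 in KO and 4.53 to 4.93 in WT. The mean of 8 adipocyte markers was 5.67 to 6.35 in KO and 5.72 to 5.87 in WT. The part of these markers in the lipogenesis values was not tested.

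**Figure D3:**
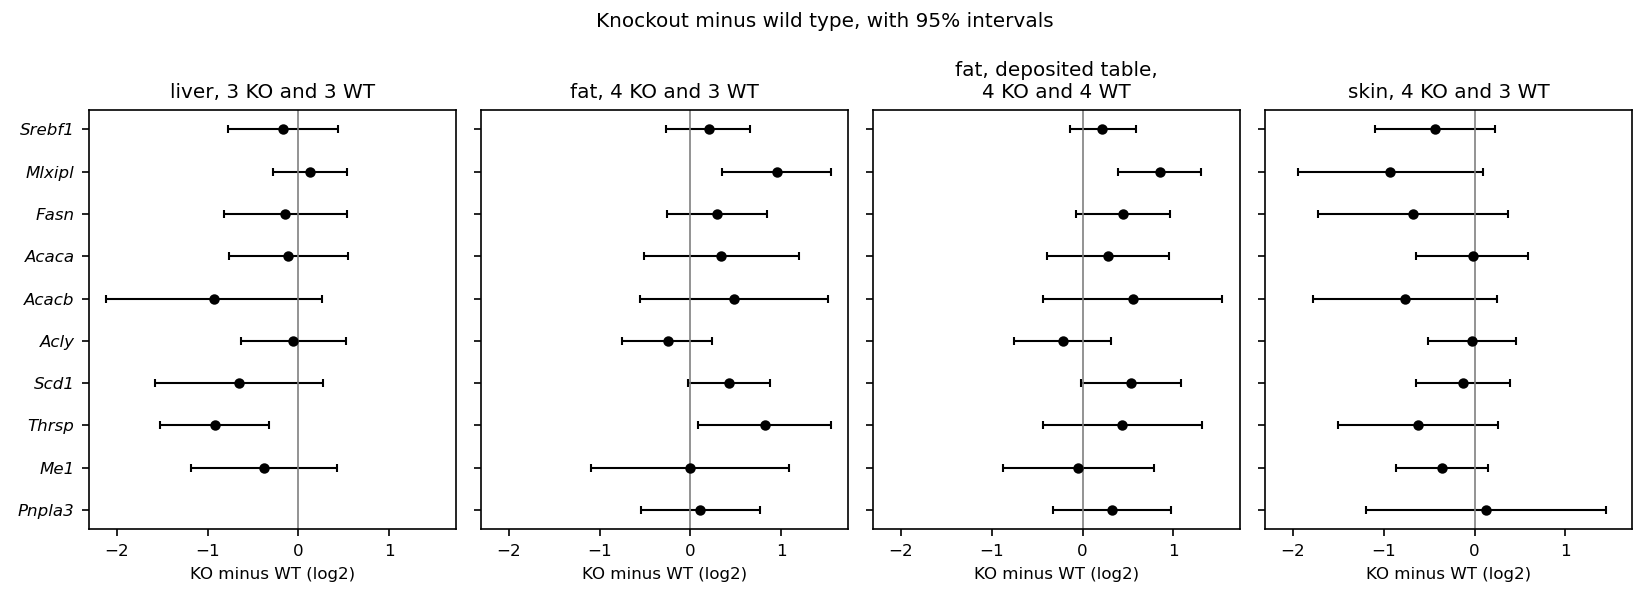
Knockout minus wild type for the 10 genes in liver, in fat from the scanner values, in fat from the deposited table and in skin, on the log2 scale with 95% intervals. The intervals of *Thrsp* in liver (-1.52 to -0.32) and of *Mlxipl* in fat (0.35 to 1.55) do not cross 0, nor does that of *Thrsp* in the fat scanner values, while no gene had an adjusted p below 0.05. *Pnpla3* is missing in liver because it was not tested there.

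In skin, 9 of the 10 genes had lower values in KO and *Pnpla3* a higher one, with a median of -0.40, where 39.4% of the 13497 genes tested had a higher value and the median was -0.10. None was called by limma, where 0.0148% of all genes were, none had an unadjusted p below 0.05, where 2.85% of all genes were higher and 5.02% lower at that level, and none had groups without overlap, where 3.35% had every KO array above and 8.16% every KO array below (11.5% in all). *Mlxipl* was at -0.46, 1.06, 0.81 and 1.37 in KO and 2.19, 1.23 and 1.45 in WT, a difference of -0.93 (SE 0.443, 95% interval -1.94 to 0.09, adjusted p = 0.555). *Fasn* was at 5.93, 7.68, 7.10 and 7.53 in KO and 8.43, 7.41 and 7.37 in WT, a difference of -0.68 (-1.72 to 0.37). For both genes the lowest array was KO 1 and the highest WT 1, the 2 dim arrays, and KO 1 was lowest for 6 of the 10 genes and WT 1 highest for 7. Without these 2 arrays, 6 genes were lower and 4 higher with a median of -0.05, *Mlxipl* was at -0.26 and *Fasn* at 0.05. *Acacb* (-0.76), *Thrsp* (-0.62), *Srebf1* (-0.44) and *Me1* (-0.36) were then at -0.07, -0.25, -0.03 and -0.25. The differences over all 7 arrays were smaller for *Scd1* (-0.13), *Acly* (-0.03), *Acaca* (-0.02) and *Pnpla3* (0.13). The second *Me1* probe, at chr9:86480552-86480611 on mm9, ran the other way in skin, at 0.70. Of 7 adipocyte markers tested, 6 were lower in KO skin and 1 higher, none called, with a median of -0.53. The mean of all 8 adipocyte markers was 4.40 to 5.22 in KO skin and 5.07 to 5.40 in WT skin. All 8 skeletal muscle markers were also lower in KO skin, with means of 6.16 to 7.73 against 7.85 to 8.01. So were 7 of 8 macrophage markers, with means of 1.96 to 2.39 against 2.47 to 3.25. Of the 8 macrophage markers, 1 was called, lower in KO. Without *Gpnmb*, which differed by -4.42, the macrophage means overlapped, at 2.52 to 3.03 and 2.63 to 3.27. The part of these markers was not tested.

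The KO differences of 2 tissues were tested against each other in a fit of all 20 arrays. None of the 10 genes was called for liver minus fat, skin minus fat or skin minus liver, where 0.0564%, 0.423% and 0.202% of all genes were. These shares also moved when 1 array was left out, with 0 to 45, 0 to 149 and 0 to 100 genes called in place of 9, 68 and 30. The smallest p was that of *Mlxipl* for skin minus fat, -1.88 (SE 0.495, 95% interval -2.92 to -0.83, adjusted p = 0.136). Over the other settings this value ran from -2.10 to -1.49 and its adjusted p from 0.0431 to 0.432, the lowest under normexp background correction, the 1 setting that called it. For liver minus fat the smallest p was that of *Thrsp*, -1.74 (SE 0.524, -2.85 to -0.63, adjusted p = 0.588), followed by *Scd1*, -1.07 (SE 0.419, adjusted p = 0.9). The fat *Thrsp* values lack KO 3 here. For *Fasn* the liver and fat differences were 0.44 apart, with an interval of -1.60 to 0.72 for liver minus fat.

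Genes around the pathway were followed in 3 lists, whose counts stand beside the 49%, 62.3% and 39.4% of all genes tested with higher values in KO liver, fat and skin. Of 20 regulators of lipogenesis tested in liver, 11 had higher and 9 lower values in KO and none was called, with a median of 0.02. The smallest p were those of *Ppargc1b*, a coactivator of SREBP-1c (-0.93, SE 0.173, adjusted p = 0.319), *Insig2*, which holds SREBP in the endoplasmic reticulum (0.70, SE 0.261), *Mbtps1*, a protease that activates SREBP (0.26), and *Foxo1* (-0.34). In fat 13 of 20 had higher and 7 lower values, none called, with a median of 0.08, whereas the counts from the deposited table were 9 higher and 11 lower, with a median of -0.03. The smallest p belonged to *Srebf2*, the cholesterol-side SREBP (-0.27, SE 0.129), *Nr1h3*, the liver X receptor alpha that induces *Srebf1* (0.37, SE 0.189), *Fbxw7*, which marks SREBP for degradation (-0.33), and *Prkaa2*, a catalytic subunit of the AMP-activated kinase (0.39), all with an adjusted p of at least 0.664. In skin 5 were higher and 15 lower, none called, with a median of -0.24.

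Of 22 genes for the supply of carbon and NADPH, 7 had higher and 15 lower values in KO liver, none called, with a median of -0.07. *Slc2a4*, the insulin-responsive glucose transporter of muscle and fat (-1.32, SE 0.416), *Hk2*, the hexokinase of the same tissues (-1.09, SE 0.381), *Txnip*, a glucose-induced inhibitor of glucose uptake (-0.55, SE 0.184), and *Slc2a2*, the hepatocyte glucose transporter (-0.42, SE 0.158), had KO arrays all below WT arrays, with adjusted p from 0.65 to 0.789. They were the 4 genes of the 22 whose groups did not overlap, as for 11% of all genes. Without liver KO 3, *Slc2a4* and *Hk2* differed by -0.81 and -0.65, and *Txnip* and *Slc2a2* by -0.54 and -0.41. In fat 15 of 20 had higher and 5 lower values, none called. There *Idh1*, an NADPH-forming dehydrogenase, had the smallest p (-0.43, SE 0.147, adjusted p = 0.559), followed by *Taldo1* (-0.34), *Pcx* (0.28) and *Khk* (0.22). In the deposited table *Idh1* differed by -0.31 with overlapping groups, and *Taldo1* had the smallest p of the list (-0.46, adjusted p = 0.374). In skin 4 of 21 were higher and 17 lower, none called, with a median of -0.19.

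Of 22 genes for the elongation, desaturation, esterification and storage of fatty acids, 4 had higher and 18 lower values in KO liver, none called, with a median of -0.21. *Cidec*, a lipid droplet fusion protein (-2.83, SE 0.692, adjusted p = 0.474), *Plin4*, a lipid droplet coat protein (-1.96, SE 0.574), and *Mogat1*, which makes diacylglycerol (-1.56, SE 0.428), had KO arrays all below WT arrays. Without liver KO 3, *Cidec*, *Plin4* and *Mogat1* differed by -1.96, -1.22 and -1.06, and without liver KO 2 *Cidec* differed by -3.42. *Cidec* is also 1 of the 8 adipocyte markers, whose mean was -2.57 to -1.28 in KO liver and -1.88 to -1.65 in WT liver. *Elovl3*, an elongase of very long chain fatty acids, had KO arrays all above WT arrays (2.13, SE 0.388, adjusted p = 0.293). In all, 7 of the 22 genes had groups that did not overlap, as for 11% of all genes. In fat 8 of 21 had higher and 13 lower values, none called. The smallest p were those of the desaturases *Fads1* (-0.42, SE 0.166) and *Fads2* (-1.49, SE 0.666), of *Gpam*, which starts glycerolipid synthesis (0.61, SE 0.292), and of *Mogat1* (-0.58, SE 0.295). The *Fads2* difference was -0.95 without fat WT 1, -1.14 without fat WT 3 and -2.38 without fat WT 4. In skin 11 of 22 were higher and 11 lower, none called, with a median of -0.07.

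The 10 genes did not share one pattern over the arrays. Each gene's levels were centred on its mean over the 20 arrays, and the 10 were averaged. This mean profile lay between 0.48 and 0.73 on 5 of the 6 liver arrays and at -0.20 on liver KO 3, between -0.17 and 0.45 in fat and between -1.32 and -0.04 in skin. Its correlation with the single genes, which are part of it, was 0.936 for *Fasn*, 0.924 for *Thrsp*, 0.884 for *Acaca*, 0.88 for *Mlxipl*, 0.86 for *Scd1* and 0.671 for *Srebf1*. It was 0.252 for *Me1*, 0.163 for *Acly*, -0.0255 for *Pnpla3* and -0.161 for *Acacb*. Outside the 10, the genes most like the profile by Pearson correlation over the 20 arrays were *Tgm2* (0.929), *Kctd2* (0.926), *Gstm2* (0.91), *Xaf1* (0.901) and *Zfp697* (0.901). The arrays share tissue, slide and scaling, so these values describe the likeness and carry no p.

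**Figure D4:**
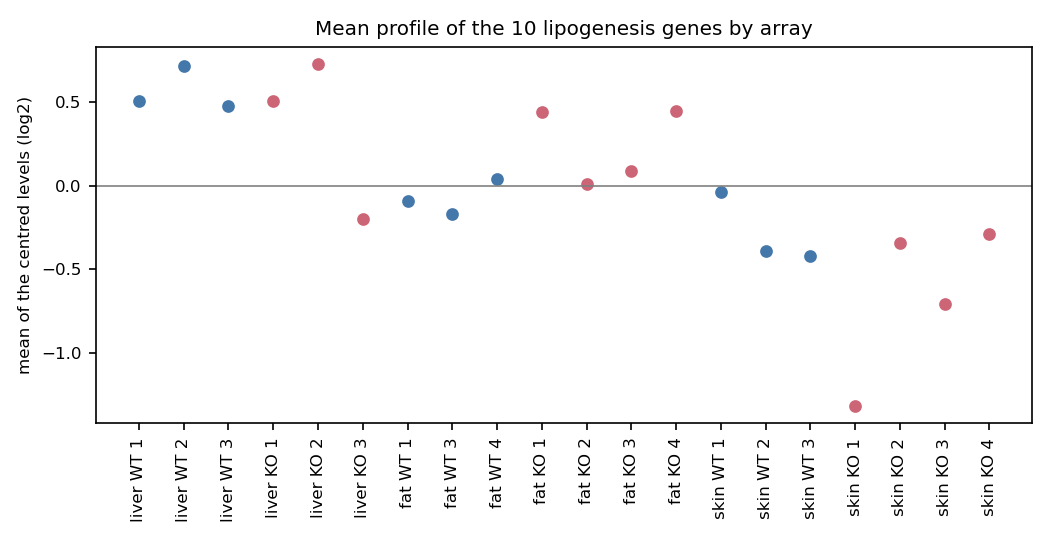
Mean of the centred levels of the 10 genes on each of the 20 arrays, in log2 (blue WT, red KO; fat KO 3 without *Thrsp*). Liver KO 3, at -0.20, lies below the other 5 liver arrays, and skin KO 1, at -1.32, is the lowest of all.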

How the data were processed

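Total RNA was measured on 21 single-colour arrays, grouped by tissue and genotype from the labels. Per the file headers, the authors' scanner files hold the intensity of each spot as Feature Extraction 10.7.3.1 processed it, background-subtracted, with no scaling between arrays and with probe positions on mm9. The authors' deposited table is in log2. The submitters' processing notes name limma, and the table's centring and normalization are not given in the sources used here. Its column medians run from 5.76 to 6.00.

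In R 4.3.3, spots of a probe were averaged without those marked as outliers, log2 was taken and each array's 75th percentile subtracted. The brightest probe stood for a gene. Genes well above background in 3 or more arrays of a tissue compared were tested with limma 3.58.1 (two-sided, Benjamini-Hochberg over all genes tested, threshold 0.05). Errors are SE of limma or SD. KO and WT were compared within a tissue, WT tissues and differences between KO effects in one fit of 20 arrays. Fat was also fitted as 4 against 4 on the deposited table, and the scanner file of fat WT 2 was used in 1 alternative only. For a fold against a group below background, that group's values were raised to the lowest signal well above background on their arrays. Such a fold was not tested. The number of arrays limits the precision.

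The 10 genes and the lists were chosen with earlier results of these data known. All 10 are named in each comparison, with the 4 genes of smallest p of each list in liver and fat and the 5 most like the mean profile. *Gpnmb* was named after its values were seen. Same-numbered samples did not deviate together (r from -0.227 to 0.19). Alternatives were normexp, quantile normalization, no filter, the mean of all probes, the deposited table, slide and replicate blocks, one fit of all arrays and leaving out arrays. The linear models were tested on simulated data. Promoter sequences are RefSeq's on GRCm38.p6. Which exon a probe matches was not analysed here.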

Additional observations from a re-analysis of the deposited data

Results flagged for a closer look

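In the authors' deposited table, *Pnpla3* stood at 6.99 in fat WT 2, below the other 3 fat WT columns at 7.80 to 7.96. The gap was 0.835 of the group's range, above Dixon's 95% critical value for 4 values. It was the 1 value flagged among 29 groups of 4 values examined for the 10 genes, and chance flags about 1 group in 20. The scanner file of the same array is the one that resembled skin. Without this column the *Pnpla3* difference in fat was 0.11 in place of 0.32, and neither was called.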

How the results depend on the processing

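In the KO comparisons none of the 10 genes was called under any setting run. Leaving out arrays, the count of the 10 called stayed 0 in each of the 3 KO comparisons and each of the 3 differences between them, and was 5 to 7 for WT liver against fat, 6 to 7 for WT liver against skin and 2 to 4 for WT fat against skin. It was 2 without fat WT 4. For skin minus fat, normexp called 1 gene, *Mlxipl*. The cause of the turned directions below was not tested.

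Directions turned as follows. With the mean of all probes, liver *Acaca* was 0.04 and *Acly* 0.07, skin *Acaca* 0.10 and *Me1* 0.17, WT liver against skin *Acly* -0.09 and *Me1* 0.77, skin minus fat *Me1* 0.31 and skin minus liver *Acly* -0.11. With slide as a fixed block, chosen for the KO comparisons after seeing the data, liver *Acly* was 0.04 and *Mlxipl* -0.48, fat *Acaca* -0.32, *Fasn* -0.32 and *Srebf1* -0.24, skin *Acly* 0.20, *Me1* 0.20 and *Scd1* 0.19, WT liver against skin *Me1* 0.17, skin minus fat *Me1* 0.48 and *Pnpla3* -0.28, and skin minus liver *Fasn* 0.11. Without the 2 dim skin arrays, also chosen after seeing the data, skin *Acaca* was 0.33, *Acly* 0.17, *Fasn* 0.05, *Pnpla3* -0.23 and *Scd1* 0.10. Quantile normalization gave skin *Acly* 0.05, WT liver against fat *Fasn* -0.24 and *Scd1* -0.24, and WT fat against skin *Srebf1* 0.14. Normexp gave skin minus liver *Acacb* -0.08 and *Acly* -0.07. The deposited table gave skin *Acly* 0.02 and *Scd1* 0.17, and the fat WT 2 scanner file gave fat *Me1* 0.29.

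Leaving out 1 array turned liver *Acaca* (-0.30 to 0.15), *Acly* (-0.28 to 0.16), *Fasn* (-0.38 to 0.12), *Me1* (-0.67 to 0.02) and *Srebf1* (-0.36 to 0.03), fat *Me1* (-0.32 to 0.34) and *Pnpla3* (-0.06 to 0.28), skin *Acaca* (-0.24 to 0.23), *Acly* (-0.16 to 0.15), *Pnpla3* (-0.55 to 0.50) and *Scd1* (-0.24 to 0.08), and WT fat against skin *Fasn* (-0.14 to 0.39). It also turned liver minus fat *Acly* (-0.02 to 0.41) and *Me1* (-0.72 to 0.02), skin minus fat *Pnpla3* (-0.66 to 0.40), and skin minus liver *Acaca* (-0.17 to 0.34), *Acacb* (-0.47 to 0.55), *Acly* (-0.19 to 0.25) and *Me1* (-0.37 to 0.32).

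With the replicate number as a block, fat *Me1* was 0.11 and *Pnpla3* -0.03, the count of the 10 called was 0 in liver, fat and skin, and over all genes 0 were called in each tissue. Over all genes 3, 2 and 2 were called in liver, fat and skin, against 20, 54 and 130 in one fit of all 20 arrays, 11 in liver under normexp and 38 in liver with KO 1, KO 2 and WT 3 left out of that fit. With 1 array left out these counts were 0 to 28 in liver (28 without WT 3), 1 to 13 in fat (13 without WT 4), and 0 to 43 in skin (43 without WT 2). Slide as a random block was not run in liver, where no estimate of the correlation between arrays of a slide was obtained.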
